A study of Homo sapiens with 3 samples.

Results

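The transcripts of 9 genes of non-homologous end joining were examined in HepG2 cells, an established line from a human hepatocellular carcinoma, after treatment with etoposide. The genes were XRCC5, XRCC6, PRKDC, DCLRE1C, POLL, POLM, XRCC4, NHEJ1 and LIG4, and they were chosen by name, so that every probe carrying one of these names in the array's own annotation was included. They account for 9 of the 27274 gene names on the array, and for 14 of its 34127 probes. RNA was hybridized to 1-color Agilent arrays, 1 array for each of 3 conditions that lasted 30 h. Control cells were given no etoposide (0 μM), and the others received it at 10 μM, called the low dose, or at 100 μM, called the high dose. The labels call the control untreated, whereas the paper names DMSO for it, and it is called control here. The study used the low dose as a condition in which senescence prevails and the high dose as one in which apoptosis prevails, and the comparisons asked how transcript levels differ between each dose and control and between the doses. All cells were of 1 line, which models liver cancer cells rather than normal liver.

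Etoposide traps topoisomerase II on DNA after it has cut both strands, which leaves double-strand breaks. Non-homologous end joining closes such breaks without a template. The Ku heterodimer, made of the XRCC5 and XRCC6 products (Ku80 and Ku70), slides onto the broken end and recruits the kinase DNA-PKcs, the product of PRKDC. Artemis (DCLRE1C) trims ends and opens hairpins, and the polymerases lambda (POLL) and mu (POLM) fill gaps. XRCC4, XLF (NHEJ1) and DNA ligase IV (LIG4) align and seal the strands. The pathway works throughout the cell cycle, whereas homologous recombination needs a sister chromatid as template, and in developing lymphocytes it also joins the segments of the antigen receptor genes.

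A signal below is the background-subtracted brightness of a probe as the scanner software gave it. For ratios, each signal was divided by its array's 75th percentile (514 for control, 536 for 10 μM and 432 for 100 μM), and the log2 of the quotient between arrays was taken. Ratios carry the SD expected from the spread of repeated spots of similar brightness on the same arrays (spot SD). For a probe printed in several spots, it was divided by the square root of their number and so is that of their mean. This SD covers the printing and reading of an array and not cultures or RNA preparations. With 1 array per condition, no ratio has a replicate check, no test between conditions was possible and no p-value is given. A gene was represented by its brightest probe, and a change of 1.5-fold (0.585 on the log2 scale) was used as the threshold for counting. Each probe's level can be compared between arrays but not with that of another probe.

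Probes of every gene but PRKDC, for POLL the dimmer probe, are shown here so that it can be seen what was read. They are 60-base sequences in the sense direction, with G and C in capitals because base composition bears on how brightly a probe reads, and positions on hg18 are those of the array files. The probe of XRCC4 (chr5:82536465-82590132, plus strand) spans 53668 bases of genome and so crosses at least 1 splice junction. The probe of XRCC5 lies at chr2:216765629-216765688 on the plus strand, the brighter probe of DCLRE1C at chr10:14990505-14990564 on the minus strand, and the dimmer probe of POLL at chr10:103329492-103329551 on the minus strand. Each of these holds at least 1 reading frame without a stop codon.
XRCC4: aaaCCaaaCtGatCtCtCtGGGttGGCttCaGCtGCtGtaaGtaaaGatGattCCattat
XRCC5: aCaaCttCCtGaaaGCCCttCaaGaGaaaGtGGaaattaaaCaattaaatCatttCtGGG
DCLRE1C: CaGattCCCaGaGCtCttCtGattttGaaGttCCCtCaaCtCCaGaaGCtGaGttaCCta
POLL: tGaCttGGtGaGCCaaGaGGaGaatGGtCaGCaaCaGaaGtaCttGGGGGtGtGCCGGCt
Of the following probes, the first 30 bases are given. They lie at chr22:40389888-40389947 on the plus strand (XRCC6), chr2:219649233-219649292 on the minus strand (NHEJ1), chr7:44078387-44078446 on the minus strand (the brightest of POLM) and chr13:107658757-107658816 on the minus strand (LIG4). The LIG4 sequence is shown because its probe gave no usable signal.
XRCC6: tttatGtttttGaGGCtttCtGttGCCatG
NHEJ1: aCCttGaaaGaaGCttaCatGGCaGCaata
POLM: CaaaaGCCaCtttGttaGGCGaGGatttCC
LIG4: aaataCtaaaCtaCattttatttttGtatC

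Promoter sequences from RefSeq (GRCh38.p14) were found for 7 of the 9 genes, with 14 start sites in all, whereas PRKDC and XRCC5 had no entry. The 250 bases before the start are given for XRCC6 (chr22:41621045-41621294, plus strand) and XRCC4 (chr5:83077297-83077546, plus strand), both lower at 100 μM, and for POLM (chr7:44082531-44082780, minus strand), which was not. Capitals mark matches on either strand to GGGCGG (a GC box), CCAAT (bound by NF-Y), TGACGT (the core of a cAMP response element) and CCGGAAG (an ETS core), and neighbouring matches may overlap.
XRCC6: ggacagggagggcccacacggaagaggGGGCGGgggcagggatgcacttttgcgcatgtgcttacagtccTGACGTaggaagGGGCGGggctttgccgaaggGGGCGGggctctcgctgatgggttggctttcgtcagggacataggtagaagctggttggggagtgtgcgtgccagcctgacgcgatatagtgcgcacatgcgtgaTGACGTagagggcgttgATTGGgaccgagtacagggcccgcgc
XRCC4: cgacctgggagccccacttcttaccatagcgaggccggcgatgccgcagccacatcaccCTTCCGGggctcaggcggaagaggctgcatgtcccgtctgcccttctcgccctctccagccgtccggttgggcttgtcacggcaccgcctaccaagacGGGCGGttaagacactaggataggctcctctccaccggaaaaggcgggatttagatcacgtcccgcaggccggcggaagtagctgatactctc
POLM: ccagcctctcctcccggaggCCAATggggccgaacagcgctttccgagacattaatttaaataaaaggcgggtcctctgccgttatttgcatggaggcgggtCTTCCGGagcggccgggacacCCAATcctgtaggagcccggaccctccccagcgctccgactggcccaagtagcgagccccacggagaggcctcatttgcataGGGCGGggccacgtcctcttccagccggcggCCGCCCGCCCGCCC
GGGCGG was present at 9 of the 14 start sites, CCAAT at 6, TGACGT at 4 and CCGGAAG at 7, compared with 42.6%, 32.0%, 7.1% and 8.52% of all 35116 promoters searched over the same length. Some windows of POLL and LIG4 overlap and several start sites belong to LIG4, so these counts are not independent. The TGACGT sites were those of LIG4 and XRCC6 alone, and the CCGGAAG sites those of XRCC4, POLM, POLL and LIG4. The E2F-type sequence GGCGGGAA was found at 1 of the 14 (DCLRE1C) and in 2.72% of all promoters, and GCATGCGC, the core of an NRF1 site, at 1 of the 14 (LIG4) and in 2.63%. TTTGAA (the core of a CHR element, 13.3% of all promoters) and the p53 decamer (5.57%) were at none of the 14. These are matches of letters within a window and were not tested as binding sites.

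At 10 μM, none of the 8 genes that could be measured differed from control by 1.5-fold, and LIG4 could not be measured. At 100 μM, 6 of the 8 were below control, compared with 42.4% of all genes measured with the scaling used. PRKDC was lowest at 0.57-fold. The median log2 ratio of all genes was 0.10 with this scaling and −0.15 without scaling, so the share below control depends on the scaling. POLM was above control. POLL was above control with the scaling used but below it without scaling and with median scaling. Across all genes measured, 9.03% were higher and 6.48% lower by 1.5-fold or more at 10 μM, and 18.4% were higher and 9.7% lower at 100 μM. The split at 100 μM turned with the scaling, to 10.1% higher and 19.5% lower without scaling, 9.19% and 21.5% with median scaling, 11.4% and 17.0% with spike-in scaling, and 13.4% and 12.5% with quantile normalization. Against the shares with the scaling used, 0 of the 8 genes were past the threshold in either direction at 10 μM, and 0 higher and 1 lower (PRKDC) at 100 μM. The number lower at 100 μM was 5 without scaling, with median scaling and with spike-in scaling, and 3 with quantile normalization. The share of genes past 2-fold in either direction was 4.98% and 10.4% at 10 and 100 μM, and none of the 8 genes was among them. The median log2 ratio of the 8 genes was 0.05 at 10 μM, where that of all genes was −0.04, and −0.49 at 100 μM, where that of all genes was 0.10. A lower signal in RNA from a culture does not separate less RNA per cell from fewer cells of a type. Of the 14 probes, 11 were well above background on every array and 3 were on none, so that the count of measured genes did not change between conditions.

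**Figure D1:**
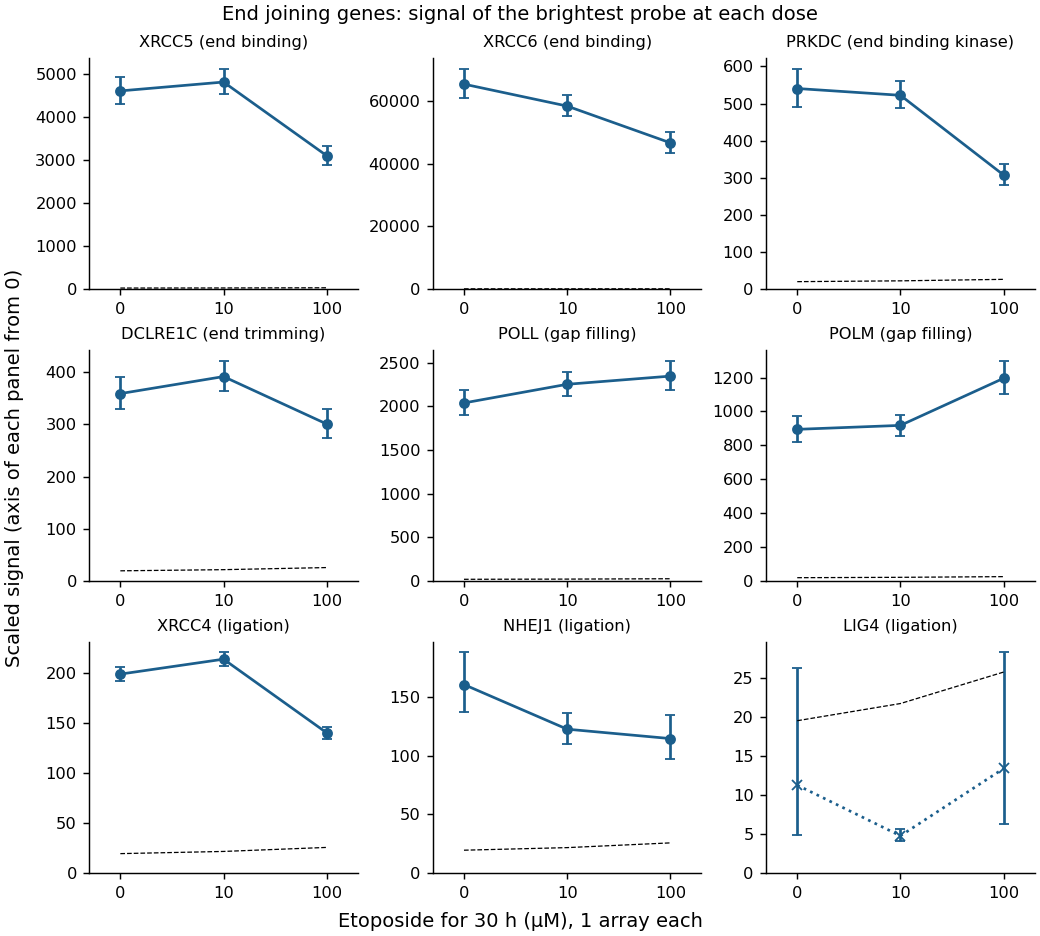
Signal of the brightest probe of each gene (y axis, scaled to the 75th percentile of the control array, each panel with its own axis from 0) against etoposide dose (x axis, 0, 10 and 100 μM). Points are single arrays, bars are 2 spot SDs and the dashed line is the lowest signal well above background. XRCC5, PRKDC and XRCC4 stayed near their control level at 10 μM and were lower at 100 μM, and LIG4 (crosses) lay under the dashed line in all 3 conditions.

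The subunits of Ku were read by 1 probe each. XRCC5 (Ku80) had a signal of 4606 in control cells, 5022 at 10 μM and 2606 at 100 μM. Its log2 ratio to control was 0.06 ± 0.07 (spot SD) at 10 μM and −0.57 ± 0.07 at 100 μM, which is 0.673-fold and just inside the threshold. The control and low dose levels were thus within the spread of repeated spots of each other, and the high dose level was below both. XRCC6 (Ku70) had a signal of 65527 in control cells, 61051 at 10 μM and 39310 at 100 μM. Its log2 ratio was −0.16 ± 0.07 at 10 μM and −0.49 ± 0.07 at 100 μM, so its level was highest in control cells, lower at 10 μM by 2.47 spot SDs and lowest at 100 μM. Both subunits, whose proteins are stable only as a pair, were below control at 100 μM, by 1.49-fold and 1.40-fold.

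PRKDC, which encodes the catalytic subunit of the DNA-dependent protein kinase, was read by 2 probes whose starts lie 184 bases apart, at chr8:48848854-48848913 and chr8:48849038-48849097 of hg18 on the minus strand. The brighter probe had a signal of 540 in control cells, 545 at 10 μM and 258 at 100 μM. Its log2 ratio to control was −0.05 ± 0.08 at 10 μM and −0.82 ± 0.09 at 100 μM, a 1.76-fold lower level. The dimmer probe had signals of 70.1, 72.5 and 33.1 in the same order, with ratios of −0.01 ± 0.19 and −0.83 ± 0.30. Both probes thus gave the same order of levels, with control and low dose close together and the high dose below them. Of all genes measured at 100 μM, 5.66% had a log2 ratio at or below that of PRKDC. PRKDC was past the 1.5-fold threshold in each of the 7 scalings tried, from −0.75 to −1.10 on the log2 scale, and at −0.69 with another background correction, which brought the dimmer probe to −0.09.

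Among the genes that process ends, DCLRE1C (Artemis, the nuclease that DNA-PKcs activates) had a signal of 359 in control cells, 409 at 10 μM and 253 at 100 μM at its brighter probe. Its log2 ratio was 0.13 ± 0.08 at 10 μM and −0.26 ± 0.09 at 100 μM. Control and low dose were within 2 spot SDs of each other, and the high dose was lower than both. A second DCLRE1C probe, with signals of 11.8, 12.4 and 6.73, was not well above background on any array.

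The gap-filling polymerases did not share the lower level at 100 μM. POLL (polymerase lambda, a relative of polymerase beta) had a signal of 2037 in control cells, 2349 at 10 μM and 1972 at 100 μM at its brighter probe. Its log2 ratio was 0.14 ± 0.07 at 10 μM and 0.20 ± 0.07 at 100 μM, but without scaling the latter was −0.05 and with median scaling −0.09, so that its direction at 100 μM depended on the scaling. The dimmer POLL probe, with signals of 208, 251 and 202, gave 0.21 ± 0.10 and 0.20 ± 0.11, and its direction at 100 μM turned under the same scalings. With the scaling used, the levels of the low and high dose were within the spot spread of each other at both probes. Without scaling, the log2 ratio of low over high dose was 0.25 at the brighter and 0.32 at the dimmer probe, beyond that spread.

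POLM (polymerase mu, the relative of terminal transferase that can add bases with little template) was measured by 2 of its 3 probes. The brightest had a signal of 895 in control cells, 958 at 10 μM and 1006 at 100 μM, with log2 ratios of 0.04 ± 0.08 and 0.42 ± 0.08. It was the only one of the 8 measured genes above control at 100 μM under every scaling, with 0.13 as the lowest ratio. The next probe had signals of 89.9, 94.0 and 91.2 and ratios of 0.00 ± 0.16 and 0.27 ± 0.16, the latter −0.02 with median scaling. The third POLM probe, annotated with the separate transcript AK092801, was not well above background on any array, with signals of 13.8, 5.48 and 4.82.

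The ligation complex was read by 1 probe for each of its components. The XRCC4 probe was printed in 10 spots on each array. Its spot SD is that of their mean and so is not comparable with those of the other genes, which are for 1 spot. The log2 SD of its single spots was 0.0948 in control cells, 0.0785 at 10 μM and 0.111 at 100 μM. Its signal was 199 in control cells, 224 at 10 μM and 118 at 100 μM, the mean of the 10 spots. Single spots ran from 176 to 226 with a median of 202 in control cells, from 209 to 242 with a median of 224 at 10 μM and from 106 to 137 with a median of 117 at 100 μM. After scaling, the spots at 100 μM ran from 126 to 163 and did not overlap those of the other arrays. The log2 ratio of XRCC4, the scaffold that holds DNA ligase IV, was 0.10 ± 0.03 at 10 μM and −0.50 ± 0.04 at 100 μM. Its level was thus highest at 10 μM and lowest at 100 μM. The level at 10 μM was 3.18 SDs of the mean above control, but the single spots of these 2 arrays overlapped after scaling. All spots read 1 RNA sample per array and are no replicates of the treatment.

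**Figure D2:**
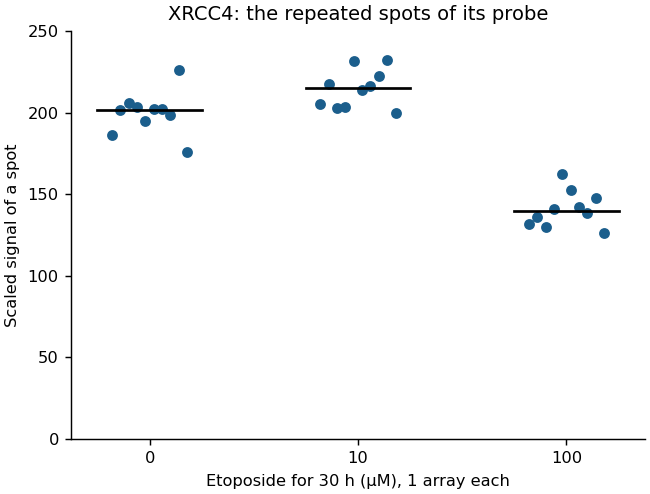
Scaled signal (y axis, from 0) of each of the 10 spots of the XRCC4 probe on the arrays of 0, 10 and 100 μM etoposide (x axis), with the median as a bar. The 10 spots at 100 μM lay between 126 and 163, below every spot of the other 2 arrays, while those at 0 and 10 μM overlapped.

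NHEJ1 (XLF, which bridges XRCC4 filaments) was the gene furthest from control at 10 μM. Its signal was 161 in control cells, 128 at 10 μM and 96.3 at 100 μM. The log2 ratio was −0.39 ± 0.14 at 10 μM and −0.49 ± 0.16 at 100 μM, both under the threshold. After scaling, the levels of both doses were within the spot spread of each other (0.10 ± 0.14), and both were below control by over 2 spot SDs.

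LIG4, which encodes the ligase of the pathway, was not well above background on any array, with signals of 11.3, 4.98 and 11.3, where the lowest signals counted as well above background were 19.5, 22.7 and 21.6. No ratio is given for it. Its single probe, shown above, holds 18.3% G and C, and 0.208% of all probes hold as little or less. Of the 71 such probes, 19.7% were well above background in control cells, 14.1% at 10 μM and 12.7% at 100 μM, compared with 58.9%, 58.1% and 59.1% of all probes. Whether the dim reading came from the probe or from a low transcript level was not tested.

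**Figure D3:**
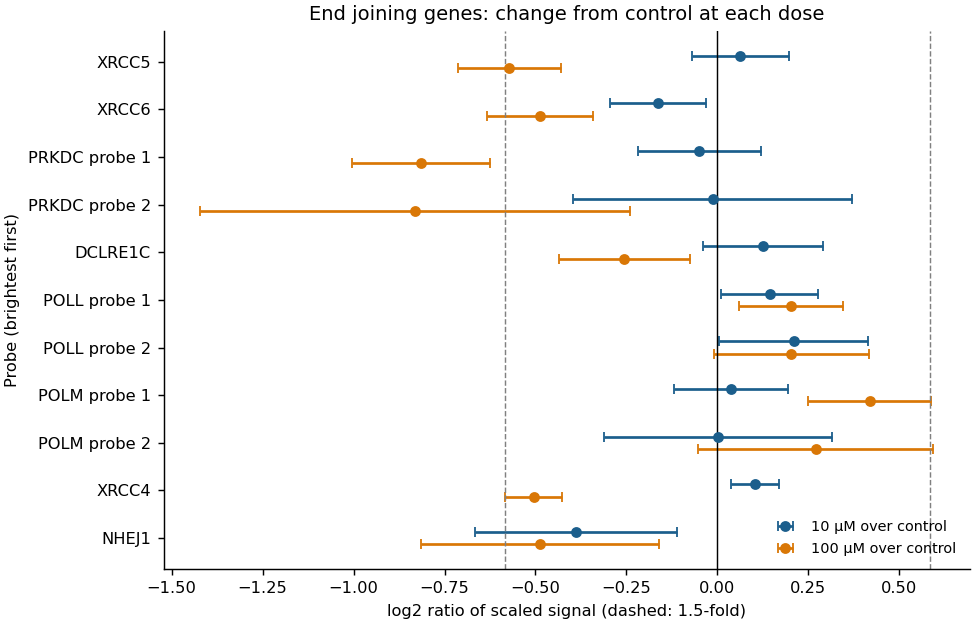
Log2 ratio of scaled signal (x axis) for each of the 11 probes measured on all arrays (y axis), for 10 μM (blue) and 100 μM (orange) over control, with bars of 2 spot SDs and dashed lines at 1.5-fold. At 10 μM every point lay between the dashed lines, and at 100 μM both PRKDC probes lay past the lower one. The POLL points and the dimmer POLM point at 100 μM changed sign under other scalings.

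The comparison of the doses with each other followed from these values. PRKDC was 1.70-fold, XRCC5 1.55-fold and XRCC4 1.53-fold higher under 10 μM than under 100 μM, with log2 ratios of 0.77 ± 0.08, 0.64 ± 0.07 and 0.61 ± 0.04. These 3 of the 8 genes were past the threshold on the higher side and none on the lower side, compared with 7.47% and 14.3% of all genes, and none was past 2-fold, which 7.58% of all genes were in either direction. Here too the split over all genes turned, to 17.2% higher and 5.43% lower without scaling, when 5 of the 8 genes were past the threshold on the higher side. With the 75th percentile over all spots, PRKDC alone was past it, with XRCC5 at 0.56 and XRCC4 at 0.54. DCLRE1C (0.38), XRCC6 (0.32) and NHEJ1 (0.10) were above 0 and POLL (−0.06) and POLM (−0.38) below it, but POLL was at 0.25 without scaling and NHEJ1 ranged from −0.05 to 0.41 over the alternatives, so that neither had a settled direction. This comparison shares its arrays with the others and adds no independent measurement.

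Where the genes stood among all others can be read from the share of genes with a ratio at or below theirs. At 100 μM this share was 5.66% for PRKDC, 10.2% for XRCC5, 12.2% for XRCC4, 12.9% for XRCC6 and NHEJ1, 23.9% for DCLRE1C, 58.2% for POLL and 72.9% for POLM. At 10 μM it ran from 14.4% for NHEJ1 and 34.0% for XRCC6 to 67.4% for DCLRE1C and 69.0% for POLL. The scaling raised the high dose array by 0.25 on the log2 scale relative to control, and without it PRKDC was at −1.07, XRCC5 at −0.82, XRCC4 at −0.75, XRCC6 and NHEJ1 at −0.74, DCLRE1C at −0.51 and POLM at 0.17. Taken relative to the median of all genes, the median of the 8 genes at 100 μM was −0.58 with the scaling used. That it was also −0.58 without scaling follows by construction, since 1 shift of each array moves both medians nearly alike. The relative median was −0.50 with quantile normalization and −0.38 with normexp background correction. With no filter on dim probes it was −0.84, as the median of all genes rose to 0.35. That of the end joining genes, with LIG4 added, stayed at −0.49. The count of genes lower by 1.5-fold at 100 μM was 1 with the scaling used and 5 without scaling.

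**Figure D4:**
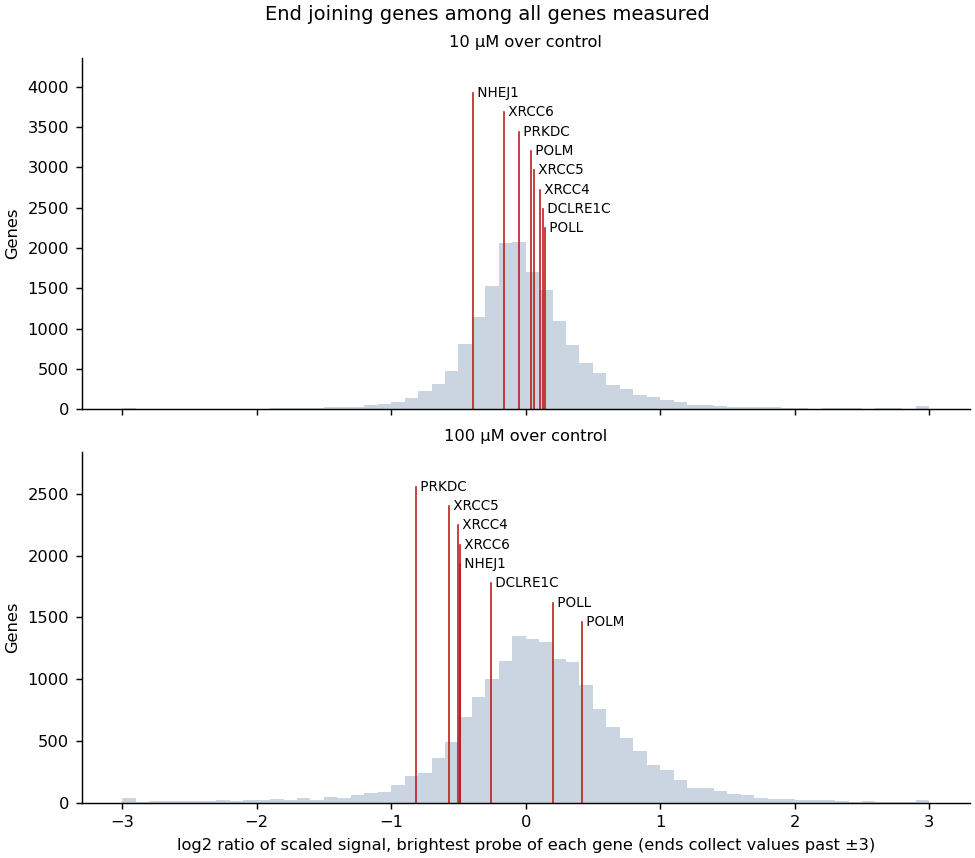
Number of genes (y axis) by log2 ratio of scaled signal (x axis, values past 3 in either direction collected in the end bars) for 10 μM (top) and 100 μM (bottom) over control, with the 8 measured end joining genes as red lines. At 10 μM the line of NHEJ1 lay at −0.39 and the others ran from −0.16 to 0.14. At 100 μM 6 of them lay between −0.82 and −0.26 and those of POLL and POLM at 0.20 and 0.42, of which POLL changed sign under other scalings.

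Other genes of break repair were described from lists, with the median and the counts past 1.5-fold with the scaling used. These list counts were not repeated under other scalings. Of all genes, 9.03% were higher and 6.48% lower at 10 μM, and 18.4% were higher and 9.7% lower at 100 μM. The lower share at 100 μM rose to 21.5% with median scaling. Accessory and end-processing factors of end joining had medians of 0.13 at 10 μM and −0.20 at 100 μM over the 8 of 10 genes measured. Only APTX (aprataxin, which removes stalled ligase products) was past the threshold at 10 μM, at 0.59 and so just over it, and only TDP1, which clears topoisomerase I adducts, at 100 μM, at −0.93. TDP2, the enzyme that removes trapped topoisomerase II from DNA ends, had log2 ratios of −0.37 and −0.11. PAXX, which stabilizes Ku-bound ends, had ratios of 0.42 and −0.26. APLF and DNTT (terminal transferase, a lymphoid enzyme) were not well above background on any array.

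Factors that mark breaks and steer them to end joining had medians of 0.15 at 10 μM and −0.28 at 100 μM over 10 genes. None was past the threshold at 10 μM. At 100 μM, where 9.7% of all genes were lower past it, 2 of the 10 were lower. These 2 were H2AX, the histone variant phosphorylated around breaks, at −1.22 and RIF1, which blocks resection together with 53BP1, at −0.82. TP53BP1, which encodes 53BP1 itself, was at 0.18 and 0.39.

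Alternative end joining, which joins resected ends through short homologies, had medians of 0.12 and −0.69 over 11 genes. At 10 μM 3 of the 11 were higher past the threshold and 1 lower, compared with 9.03% and 6.48% of all genes. At 100 μM 0 were higher and 6 lower, compared with 18.4% and 9.7% of all genes. POLQ (polymerase theta, the main enzyme of this pathway) was at 1.11 at 10 μM and −2.15 at 100 μM. FEN1, a flap nuclease also used in replication, was at 1.12 and −1.16, and LIG1, the replicative ligase, at 1.06 and −0.30. NBN, part of the complex that senses breaks, was lower at both doses, at −0.80 and −0.77, and RBBP8 (CtIP, which starts resection) was at −0.06 and −1.56.

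Homologous recombination had medians of 0.62 at 10 μM over 16 genes and −1.87 at 100 μM over the 15 measured there, with genes not well above background at 100 μM entered at their bound. At 10 μM 9 of the 16 were higher past the threshold and 0 lower, compared with 9.03% and 6.48% of all genes. At 100 μM 0 were higher and 11 of 15 lower, compared with 18.4% and 9.7% of all genes. Among the genes read above background in each condition, the lowest at 100 μM was BLM, a helicase that dissolves joined chromatids, at −2.11, and the highest was XRCC3, which acts in strand exchange, at 0.32. Beside these lists, the end joining genes spanned from −0.39 to 0.14 at 10 μM and from −0.82 to 0.42 at 100 μM. Whether the lists differ from each other was not tested.

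Paralogs of the 9 genes, 5 of 6 measured, had medians of 0.32 and −0.33. Beside POLL, the related POLB (polymerase beta, the base excision repair enzyme) was at 0.14 and −0.08. Beside DCLRE1C, DCLRE1A, a nuclease of cross-link repair, was at 0.32 and −0.95 and DCLRE1B (Apollo, a telomere nuclease) at 0.32 and −0.33. Known targets of p53 were past the threshold on the higher side in 10 of 10 genes at 10 μM and 9 of 10 at 100 μM. The shares of all genes were 9.03% and 18.4%. CDKN1A (p21) was at 2.99 and 2.82.

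**Figure D5:**
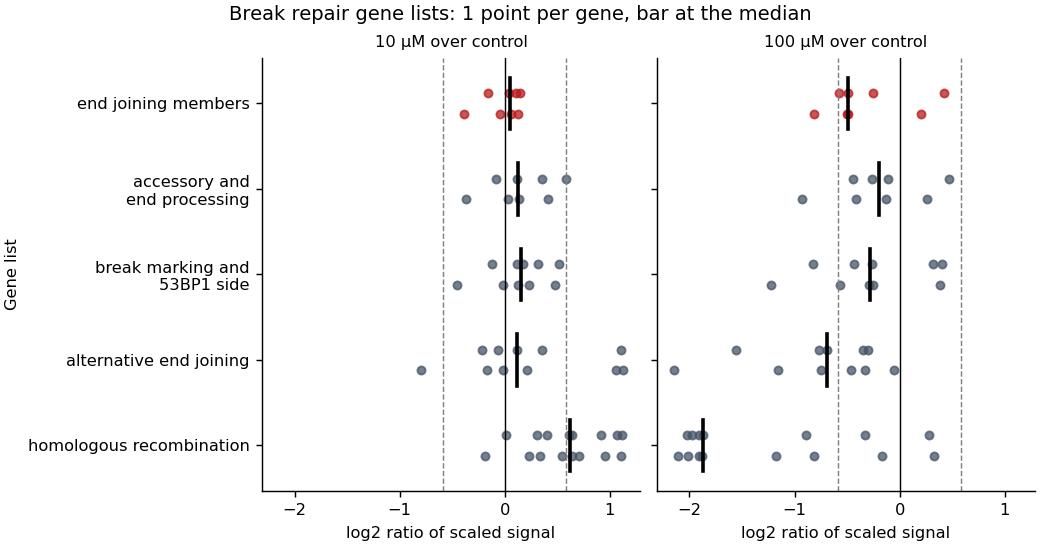
Log2 ratio of scaled signal (x axis) at 10 μM (left) and 100 μM (right) over control for each measured gene (point) of the lists of break repair genes (y axis), with the median as a bar and dashed lines at 1.5-fold. The end joining genes (red) had medians of 0.05 and −0.49, and homologous recombination genes medians of 0.62 and −1.87.

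All 10 hepatocyte markers examined, among them ALB and APOA1, were well above background on every array, and their median log2 ratio was 0.01 at 10 μM (range −0.74 to 0.59) and 0.49 at 100 μM (range −0.52 to 1.11), with ALB lowest at both doses. None of 5 fibroblast markers was well above background on any array. Of 7 lymphoid markers, 4 were well above background on all arrays, and RAG2, MS4A1 and DNTT were not well above background on any. The log2 ratios of these 4 ran from −1.03 for PTPRC to 0.14 for RAG1 at 10 μM. At 100 μM all 4 were above control, from 0.41 to 0.77. The signal before scaling, summed over all 7, was 4140 in control cells, 3702 at 10 μM and 5839 at 100 μM. CD79A alone gave 3771, 3461 and 5416 of it. Of 4 endothelial markers, 2 passed this mark on all arrays. The part of these differences in the end joining values was not tested.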

How the data were processed

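RNA of HepG2 cells was read on 3 arrays, 1 per condition, all on 1 slide. The authors deposited Feature Extraction (version 10.7.3.1) output, in which the intensity of each spot is background-subtracted and detrended within the array but not scaled between arrays. The deposited series table holds the same intensity values. From these, log2 signals were averaged over the spots of a probe without outlier spots and the array's 75th percentile over probes was subtracted. Where 1 signal of a ratio was not well above background, it was raised to the lowest one well above background if it lay below it. No ratio given for the 9 genes needed this. The spot SD came from the 50 repeated probes nearest in signal and was divided by the square root of the probe's number of spots. The number of arrays limits the precision. All probes of the 9 genes are given. Of other lists, genes past 1.5-fold or at the ends of the range were eligible, some of which are not reported here, and TDP2, PAXX, TP53BP1, the paralogs and the cell type markers were named for their function or after their values were seen. The genes and lists were chosen with earlier results of these data known. Alternatives were other scalings, normexp correction (offset 50), other filters, other rules for probes and other thresholds. Steps were tested on simulated data. Python 3.11.15, numpy 2.4.6, pandas 2.3.3, R 4.3.3 and limma 3.58.1 were used. Probe exons could not be looked up, since no annotation of hg18 was used here.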

Additional observations from a re-analysis of the deposited data

How the results depend on the processing

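With 1 array per condition the values rest on single RNA samples, and dim probes limit what can be said of LIG4. No paired analysis was possible because there were no replicate arrays to pair. The median of the 8 genes at the low dose kept its sign under all alternatives tried. At 0.05, it was smaller than the spot SD of every measured probe but that of XRCC4, which is for a mean of 10 spots. Relative to the median of all genes, the median of the end joining genes turned to −0.03 with no filter on dim probes. There the median of all genes rose from −0.04 to 0.07, while that of the end joining genes, with LIG4 added, was 0.04. At the high dose over control, the median was −0.74 without scaling, −0.78 with median scaling, −0.69 with spike-in scaling and −0.25 with normexp correction, against −0.49 as reported, and the median of all genes was −0.15, −0.19, −0.10 and 0.13 in the same order, against 0.10. The number of genes past 1.5-fold there was 5 with each of the first 3 settings, 3 with quantile normalization, 2 with normexp correction and 0 at the 2-fold or 3-fold threshold, against 1. For low over high dose, the median was 0.66 without scaling, 0.62 with median scaling and 0.59 with spike-in scaling, against 0.35, and the median of all genes was 0.20, 0.16 and 0.13, against −0.11. The number past 1.5-fold was 5 without scaling, 5 with median scaling, 1 with the 75th percentile over all spots and 0 at the 2-fold or 3-fold threshold, against 3. With no filter on dim probes, 1 gene (LIG4, not well above background) was past 1.5-fold at the low dose, against 0. The moves without scaling and with median, spike-in or all-spot scaling are by construction 1 shift of each array. With no filter, genes not well above background enter the medians and counts. The cause of the moves with quantile normalization and normexp correction was not tested. Of 363 probe values under the alternatives, 86 moved by over 1 spot SD. The filters on dim probes and the deposited series table leave the values of these probes as they are, so those settings could not move any. No value past 1.5-fold changed sign, but smaller ones of NHEJ1, POLL, POLM and PRKDC did under some settings.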
